A study of Mus musculus with 8 samples.

Results

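The 10 genes described here mark Cajal-Retzius cells and other neurons that are born earliest in the developing cortex: *Reln*, *Calb2*, *Trp73*, *Lhx1*, *Lhx5*, *Ebf1*, *Ebf2*, *Ebf3*, *Nhlh1* and *Nhlh2*. They were taken by symbol as known markers of these neurons, with earlier results of these data known, and all 10 were found among the 26263 genes counted in each library. All 10 also passed the filter on low counts, which kept 16399 genes.

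Cajal-Retzius cells are among the first neurons of the cortex. They arise mainly at its borders, such as the cortical hem and the septum, spread under the pial surface and secrete reelin, the glycoprotein that guides the layering of later-born neurons. p73, the product of *Trp73*, is needed for Cajal-Retzius cells of the hem and septum, whereas the LIM-homeodomain factors Lhx1 and Lhx5, the early B cell factors Ebf1 to Ebf3 and the basic helix-loop-helix factors Nhlh1 and Nhlh2 are also switched on in newborn neurons of many other regions. Outside the nervous system, *Lhx1* acts in the early mesendoderm and the kidney, *Ebf1* in B lymphocytes and mesenchyme, and *Ebf2* in precursors of adipocytes, so that none of the 10 genes marks Cajal-Retzius cells alone.

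RNA-seq libraries had been made from mouse embryonic stem cells (ESCs) and from the neural precursor cells (NPCs) obtained from them at day 12 of *in vitro* corticogenesis. Both stages were sampled in 2 reciprocal hybrid crosses of the strains C57BL/6 and JF1, so that 4 groups of 2 replicates were available. The B/J cells were the line BJE2 (genotype C57BL/6 x JF1) and the J/B cells the line JBE6 (genotype JF1 x C57BL/6). Each cross was represented by a single line, so that an effect of the cross and an effect of the line cannot be told apart. ESCs had been kept in a medium with LIF, BMP4 and an inhibitor of GSK3-β, and NPCs were derived from these same lines with no genetic change in any group. The sources do not say whether replicates were separate cultures, so that p-values measure the spread between these samples, which may be technical in part.

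The libraries held 22537138 to 32706015 reads on genes. Levels are given as CPM, the counts of a gene scaled to a library total of 1000000 reads on genes, and 1 count was worth 0.0306 to 0.0444 CPM. Replicates of a group differed far beyond counting error, with a chi-square of 64.5 to 90.7 per gene. The 2 kits used for the libraries are not assigned to single libraries in the labels. Pluripotency genes checked the ESC label, with *Pou5f1* at 1351 to 1950 CPM in the ESC libraries and 19.5 to 58.9 CPM in the NPC libraries. Of 10 genes of neural precursors and the dorsal telencephalon 8 rose in NPCs, among them *Fabp7* (29.0 to 164 CPM) and *Hes5* (12.0 to 54.1 CPM), while *Sox2*, which ESCs also express, fell by 2.27 ± 0.40 on the log2 scale (adjusted p = 0.00161) and *Pax6* did not pass the test (1.77 ± 0.73, adjusted p = 0.0606). NPC libraries also held markers of other lineages, given below beside the genes they bear on.

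Promoters were read from the GRCm39 genome (the mm39 build of the files) to show the sequence in front of these genes. In the 300 bases upstream of the canonical start, 4 motifs were searched on both strands: the EBF core CCCNNGGG, the E-box CAGCTG of Nhlh factors, the E-box CAGATG of proneural factors, and TTCAGCACC, the left part of the site of the neuronal repressor REST. The EBF core was found in the promoters of *Reln* (2 matches) and *Nhlh1*, against 14.3% of 21737 mouse promoters. CAGATG was found in those of *Nhlh1* and *Nhlh2*, against 15.8% of all promoters. CAGCTG (13.6% of all promoters) and TTCAGCACC (0.331%) were in none of the 10, which says only that these letters are not in these windows. The 300 bases of *Reln* had the highest share of G and C of the 10, at 80.3%. All windows with a match in the 10 genes are shown, without regard to the levels of the genes. Each is 60 bases, on the strand of the gene, with the match in capitals:
Reln chr5:22549918-22549977 (-): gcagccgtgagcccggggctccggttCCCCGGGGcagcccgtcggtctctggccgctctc
Reln chr5:22549786-22549845 (-): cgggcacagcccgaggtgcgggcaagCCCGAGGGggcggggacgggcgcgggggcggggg
Nhlh1 chr1:171885274-171885333 (-): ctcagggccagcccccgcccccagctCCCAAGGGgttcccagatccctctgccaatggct
Nhlh1 chr1:171885334-171885393 (-): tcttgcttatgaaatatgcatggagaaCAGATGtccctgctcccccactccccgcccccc
Nhlh2 chr3:101917307-101917366 (+): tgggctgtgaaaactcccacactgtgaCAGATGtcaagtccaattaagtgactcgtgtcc

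These matches are a description of the letters, and binding was not measured. The first *Reln* match begins 251 bases upstream of the start and the second 119 bases upstream. In *Nhlh1* the EBF core lay 167 bases and the E-box 226 bases upstream, without overlap, and in *Nhlh2* the E-box lay 58 bases upstream.

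The first comparison asked how the 10 genes changed between ESCs and NPCs. Of the 10, 9 rose and *Trp73* did not pass the test. Over all genes tested, 37.5% were called higher in NPCs and 31.9% lower, so that a call in this comparison was common. The median log2 fold change was 6.52 for the 10 genes (6.11 to 6.77 with 1 library left out, except 8.57 and 7.81 without B/J and J/B replicate 2 of the ESCs, which turn on fitted *Lhx1* values that depend on the prior count) and 0.17 for all genes. Medians of a similar size were found in other lists, such as 6.10 for 10 genes of mesenchyme and adipocyte precursors and 5.82 for 7 other Cajal-Retzius markers. The same 9 genes had every NPC library above every ESC library, which held for 46.7% of all genes tested. These are bulk libraries, in which more cells of a type and more RNA per cell cannot be told apart.

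**Figure D1:**
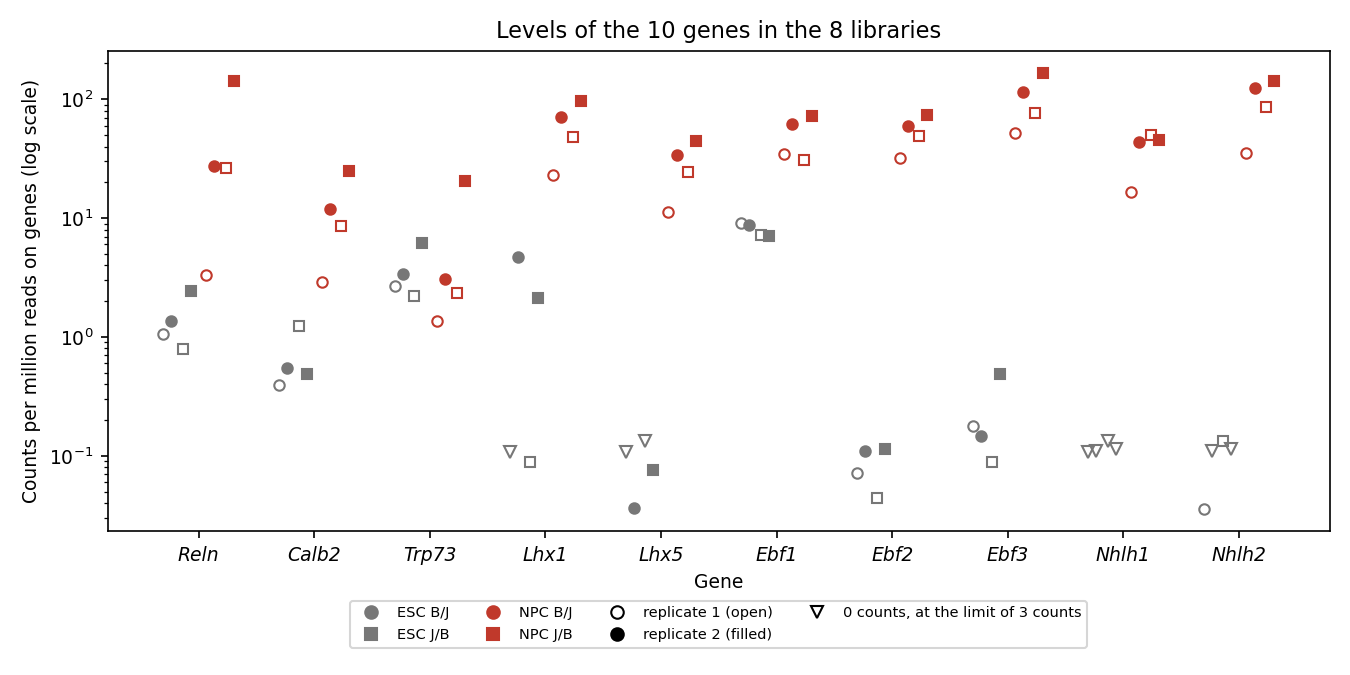
Level of each gene in each of the 8 libraries, in CPM on a log axis; grey is ESC, red is NPC, circles are B/J, squares are J/B, open is replicate 1, filled is replicate 2, and a triangle marks a count of 0, drawn at the level 3 counts would have. For *Trp73* the 2 stages overlap, and for *Reln* the NPC libraries run from 3.34 to 144 CPM.

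*Reln* encodes reelin itself and lies on chromosome 5 at chr5:22089452-22549700 on the minus strand. Its level was 1.07, 1.35, 0.799 and 2.41 CPM in the ESC libraries of B/J replicates 1 and 2 and J/B replicates 1 and 2, in that order, which is kept below. In the NPC libraries it was 3.34, 27.4, 26.2 and 144 CPM. Every NPC library was above every ESC library, but the lowest NPC library exceeded the highest ESC library only 1.38 times. The NPC level was 50.2 ± 63.3 CPM (SD, n = 4). The log2 fold change was 4.21 ± 0.83 (SE worked back from the test, adjusted p = 0.00261, edgeR's quasi-likelihood test over 8 libraries). Over both crosses it ran from 3.12 without B/J replicate 2 of the NPCs to 4.69 without J/B replicate 2 of the ESCs, and was 3.37 without J/B replicate 2 of the NPCs. The SD of the NPC level exceeded the mean because J/B replicate 2 held 3680 of the 5370 *Reln* counts of the NPCs.

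*Calb2* encodes calretinin, a calcium-binding protein used to mark Cajal-Retzius cells and many interneurons (chr8:110864128-110894881, minus strand). Its ESC levels were 0.392, 0.547, 1.24 and 0.490 CPM. Its NPC levels were 2.89, 11.8, 8.65 and 24.7 CPM, with the same lowest and highest libraries as *Reln*. The stages did not overlap, and the log2 fold change was 3.62 ± 0.63 (adjusted p = 0.00142). With 1 library left out it ran from 2.96 to 4.05.

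*Trp73* encodes p73, the member of the p53 family needed for Cajal-Retzius cells (chr4:154140706-154224665, minus strand). It was read in ESCs already, at 2.67, 3.39, 2.22 and 6.22 CPM. In NPCs it stood at 1.36, 3.09, 2.32 and 20.3 CPM. The first 3 NPC libraries thus lay within or below the range of the ESCs, and J/B replicate 2 alone stood above every other library. The log2 fold change over both crosses was 0.01 ± 0.69 (adjusted p = 0.990), and without J/B replicate 2 of the NPCs it was -1.12 (adjusted p = 0.110). Counts do not separate the 2 promoters of this gene, so that the full-length and the shortened p73 transcripts were not told apart.

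*Lhx1* and *Lhx5* encode paired LIM-homeodomain factors of early neurons. *Lhx5* (chr5:120569764-120579292, plus strand) had 0, 1, 0 and 2 counts in the ESC libraries, and 349, 894, 804 and 1151 counts in the NPC libraries, or 11.3, 33.6, 24.6 and 44.9 CPM. The gene was thus near 0 in every ESC library and read at least 349 times in every NPC library. Summed over libraries and normalised by TMM, its NPC/ESC ratio was 692 (95% interval from counting error only, 237 to 3359), on 3 ESC counts. Its fitted log2 fold change was 9.33 ± 0.74 (adjusted p = 4.17e-05), and ran from 8.85 to 11.12 with 1 library left out. The upper value leaves a J/B ESC library with 0 counts and depends on the prior count.

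*Lhx1* (chr11:84408803-84416368, minus strand) had a different ESC baseline. Its counts were 0, 129, 2 and 56 in the ESC libraries, so that both libraries numbered 2 read it and both numbered 1 scarcely did. In the NPC libraries it had 716, 1886, 1588 and 2472 counts, or 23.2, 71.0, 48.6 and 96.5 CPM, all above the ESC maximum of 4.71 CPM. The log2 fold change was 4.70 ± 1.14 (adjusted p = 0.00719). It depended on the ESC libraries that read the gene, at 9.36 (adjusted p = 0.00241) without B/J replicate 2 and 6.48 (adjusted p = 0.00787) without J/B replicate 2. The remaining ESC library of the same cross then had 0 or 2 counts, so that both values depend on the prior count and are not read as sizes.

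The ESC libraries that read *Lhx1* were also those with the highest levels of 2 primitive-streak genes, *T* and *Mixl1*, of the mesendoderm, a lineage in which *Lhx1* acts. The summed level of 8 such markers was 9.79, 87.8, 10.3 and 67.4 CPM in the 4 ESC libraries, and 60.7, 45.0, 234 and 95.0 CPM in the 4 NPC libraries. *T* and *Mixl1*, named after their values were seen, stood at 5.41, 72.0, 7.45 and 58.2 CPM and at 0.392, 11.6, 0.666 and 5.24 CPM in the ESC libraries. The other 6 genes of the list summed to 3.99 and 2.17 CPM in the ESC libraries numbered 1 and to at least 3.96 CPM in those numbered 2, so that the ranges overlapped. *Mixl1* fell to at most 0.275 CPM in the NPCs, whereas *T* reached 173 CPM in J/B replicate 1. The part of these cells in the *Lhx1* level was not tested. Exons of *Lhx1* share 1661 bases with the antisense gene *Lhx1os*, which was counted 0 times in all ESC libraries and 46, 75, 126 and 165 times in the NPCs. Whether counting used the strand is not stated, and reads over these bases could belong to either gene.

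The balance of the pair was nearly constant among NPCs. Per length of annotated exons, *Lhx1* made up 54.8% to 56.9% of the reads of *Lhx1* and *Lhx5* in the 4 NPC libraries, although the level of each gene varied about 4 times between them (highest over lowest library 4.15 for *Lhx1* and 3.97 for *Lhx5*).

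The 3 *Ebf* genes encode closely related helix-loop-helix factors, and they changed from unequal baselines. *Ebf1* (chr11:44508138-44898918, plus strand) was read in ESCs at 9.15, 8.72, 7.23 and 7.13 CPM and in NPCs at 34.5, 62.3, 30.9 and 71.9 CPM. Its rise was the smallest of the 9 and did not overlap between stages, and its log2 fold change was 2.15 ± 0.31 (adjusted p = 5.39e-04). *Ebf2* (chr14:67470736-67668394, plus strand) had 2, 3, 1 and 3 counts in ESCs and stood at 31.9, 59.5, 49.3 and 73.6 CPM in NPCs.

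That was a summed NPC/ESC ratio of 438 (95% interval 230 to 957) and a log2 fold change of 8.73 ± 0.40 (adjusted p = 9.31e-06) for *Ebf2*. *Ebf3* (chr7:136795402-136916218, minus strand) had 5, 4, 2 and 13 counts in ESCs and 52.1, 115, 76.5 and 168 CPM in NPCs. Its ratio was 310 (95% interval 208 to 484) and its log2 fold change 8.33 ± 0.55 (adjusted p = 2.38e-05). Hence 2 of the 3 genes rose from a level near 0, while *Ebf1* rose from a level already measurable in every ESC library.

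The make-up of the family shifted with these changes. Per length of annotated exons, *Ebf1* accounted for 92.7% to 98.2% of the reads of *Ebf1* to *Ebf3* in the 4 ESC libraries and for 19.3% to 28.7% in the 4 NPC libraries. *Ebf3* took 36.8% to 45.9% in NPCs and *Ebf2* 30.9% to 40.1%. With the length of the canonical transcript instead, *Ebf1* held 90.9% to 97.9% in ESCs and 17.2% to 25.8% in NPCs. The shares are descriptive, and similar sequences among the 3 genes could move some reads between them.

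**Figure D2:**
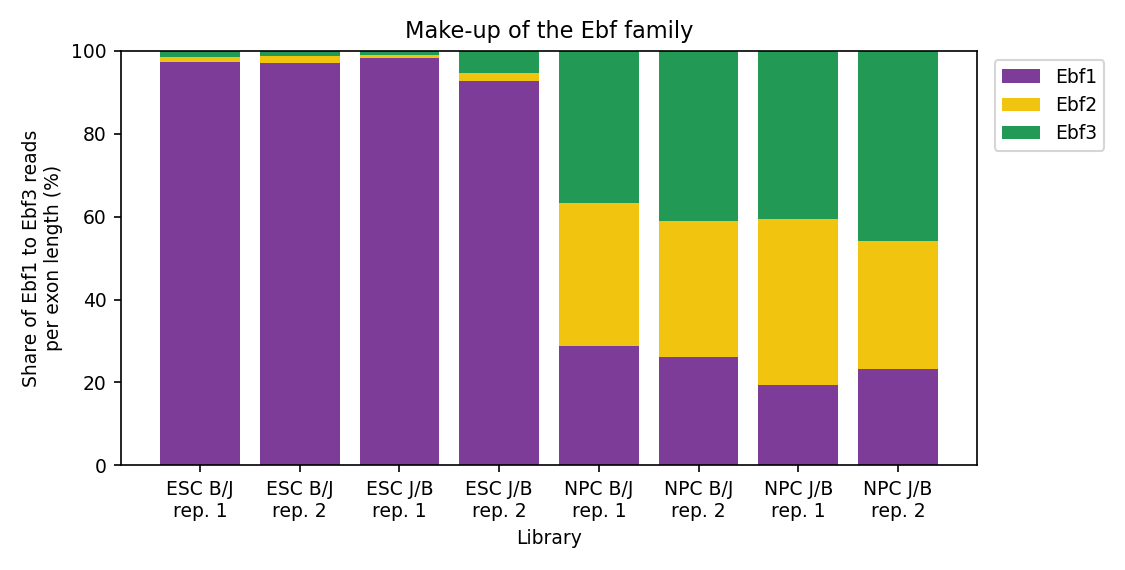
Stacked bars give the share of *Ebf1*, *Ebf2* and *Ebf3* among the reads of the 3 genes per exon length, in percent, for each of the 8 libraries. *Ebf1* held at least 92.7% in each ESC library and at most 28.7% in each NPC library.

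*Nhlh1* and *Nhlh2* encode basic helix-loop-helix factors that appear briefly in neurons leaving the cell cycle. *Nhlh1* (chr1:171879859-171885140, minus strand) had 0 counts in all 4 ESC libraries, where 0 counts allow up to 0.107 to 0.133 CPM per library, and 508, 1161, 1646 and 1170 counts in the NPC libraries (16.5, 43.7, 50.3 and 45.7 CPM). Against a limit of 3 counts over the 4 ESC libraries, the NPC level was at least 971-fold higher after TMM normalization. *Nhlh2* (chr3:101917392-101922808, plus strand) had 1, 0, 3 and 0 counts in ESCs and stood at 35.4, 125, 85.3 and 142 CPM in NPCs.

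The *Nhlh2* ratio was 1763, on 4 ESC counts, with a wide 95% interval of 688 to 6472, and its fitted log2 fold change was 10.82 ± 0.78 (adjusted p = 3.06e-05). With 1 library left out, the *Nhlh2* value ran from 10.24 to 12.91. The upper value leaves a J/B ESC library with 0 counts and depends on the prior count. These 2 genes, *Lhx5* and *Ebf2* were scarcely read in ESCs, at no more than 3 counts in any ESC library. *Nhlh1* was the only one of the 10 whose highest NPC library was not J/B replicate 2: it peaked in J/B replicate 1. Per exon length its share of the pair was 41.3% to 56.5% in the NPC libraries.

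**Figure D3:**
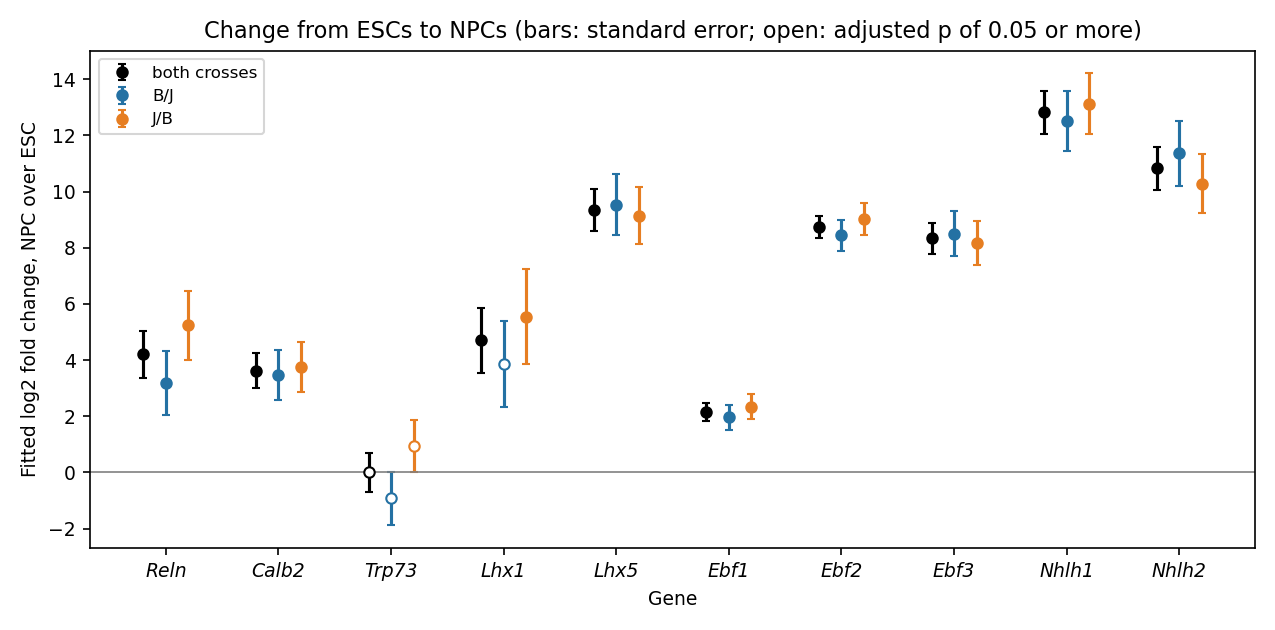
Fitted log2 fold change of each gene between NPCs and ESCs, over both crosses (black), in B/J (blue) and in J/B (orange). Bars give the standard error worked back from the test, and open circles did not pass an adjusted p of 0.05. The values for *Nhlh1*, with 0 counts in ESCs, depend on the prior count of the fit and are not read as sizes, and *Trp73* lies around 0 in all 3 fits.

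The change between stages was then taken within each cross. In B/J, 8 of the 10 genes rose, against 30.1% of all genes tested, and in J/B 9 of the 10 rose, against 29.1%. *Lhx1* made the difference in number, with log2 fold changes of 3.86 ± 1.54 in B/J (adjusted p = 0.0646) and 5.54 ± 1.69 in J/B (adjusted p = 0.0259). *Reln* rose by 3.18 ± 1.13 on the log2 scale in B/J (adjusted p = 0.0445) and by 5.23 ± 1.22 in J/B (adjusted p = 0.00884). For *Trp73* the fitted values were -0.92 ± 0.95 in B/J (adjusted p = 0.431) and 0.95 ± 0.94 in J/B (adjusted p = 0.413).

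Several of these within-cross calls rest on single libraries. The *Reln* rise in B/J fell to 1.03 (adjusted p = 0.420) without B/J replicate 2 of the NPCs, and that of *Calb2* in B/J, which was 3.48 (adjusted p = 0.0130), fell to 2.18 (adjusted p = 0.0724). Both calls were also lost without B/J replicate 1 of the ESCs (*Reln* 3.05, adjusted p = 0.177, and *Calb2* 3.28, adjusted p = 0.0817) and without B/J replicate 2 of the ESCs (*Reln* 3.32, adjusted p = 0.147, and *Calb2* 3.70, adjusted p = 0.0608). In J/B the *Reln* rise was 3.55 (adjusted p = 0.0470) without replicate 2 of the NPCs, 6.21 (adjusted p = 0.0255) without replicate 2 of the ESCs and 5.97 (adjusted p = 0.00739) without replicate 1 of the NPCs. Leaving out replicate 2 of the NPCs in J/B took *Calb2* from 3.77 (adjusted p = 0.00938) to 2.83 (adjusted p = 0.0550) and *Trp73* to -1.32 (adjusted p = 0.253). *Lhx1* in B/J was called (adjusted p = 0.0140) without replicate 2 of the ESCs, the library with 129 *Lhx1* counts, but the remaining ESC library had 0 counts, so that the fitted size then depends on the prior count and is not given. In J/B without replicate 2 of the ESCs the *Lhx1* value was 9.10 (adjusted p = 0.0297), which rests on 2 ESC counts and likewise depends on the prior count.

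No difference between the crosses passed the test for any of the 10 genes. The interaction of stage and cross called 0 of 16399 genes (0.0%) with edgeR, 11 with DESeq2 and 0 with limma-voom, and 573 genes had an unadjusted p below 0.05 in edgeR, none of them among the 10. For *Reln* the rise was 2.06 ± 1.52 log2 units larger in J/B than in B/J (unadjusted p = 0.216), a value that ran from 0.37 without J/B replicate 2 of the NPCs to 4.18 without B/J replicate 2. Between J/B and B/J NPCs, 1 of 16399 genes (0.0061%) was called by edgeR, 70 by DESeq2 and 1 by limma-voom, and none of the 10 was called by any of them. An unadjusted p below 0.05 was reached by 1050 genes, and *Trp73* was the only one of the 10 among them, while *Reln* fell just short of it. Their fitted differences ran from 0.04 to 2.43 log2 units, and the largest were those of *Reln* (2.43 ± 1.05, adjusted p = 0.770) and *Trp73* (2.30 ± 0.98, adjusted p = 0.770). With each library left out in turn the *Reln* value ran from 0.74, without J/B replicate 2 of the NPCs, to 4.56, without B/J replicate 2, and that of *Trp73* from 0.02, without J/B replicate 2 of the NPCs, to 3.11, without J/B replicate 1. Between J/B and B/J ESCs, 0 genes (0.0%) were called by edgeR, with 346 at an unadjusted p below 0.05, 10 by DESeq2 and 0 by limma-voom. None of the 10 was among the 346. For 9 of the 10 genes, all but *Ebf1*, the J/B library was the higher of each same-numbered pair of NPC libraries, which held for 37.8% of all genes tested. With a replicate block within each stage, added after seeing the data, the *Reln* difference was 2.61 ± 0.29 (adjusted p = 0.0648) and that of *Trp73* 1.76 ± 0.58 (adjusted p = 0.197).

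That spread was itself unequal among the 10 genes. The highest NPC library exceeded the lowest 43.0 times for *Reln*, 14.9 times for *Trp73* and 8.55 times for *Calb2*, the 3 genes most used to define Cajal-Retzius cells. For the other 7 genes the ratio was between 2.31 for *Ebf2* and 4.15 for *Lhx1*. B/J replicate 1 was the lowest NPC library for all of them but *Ebf1*, which was lowest in J/B replicate 1.

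**Figure D4:**
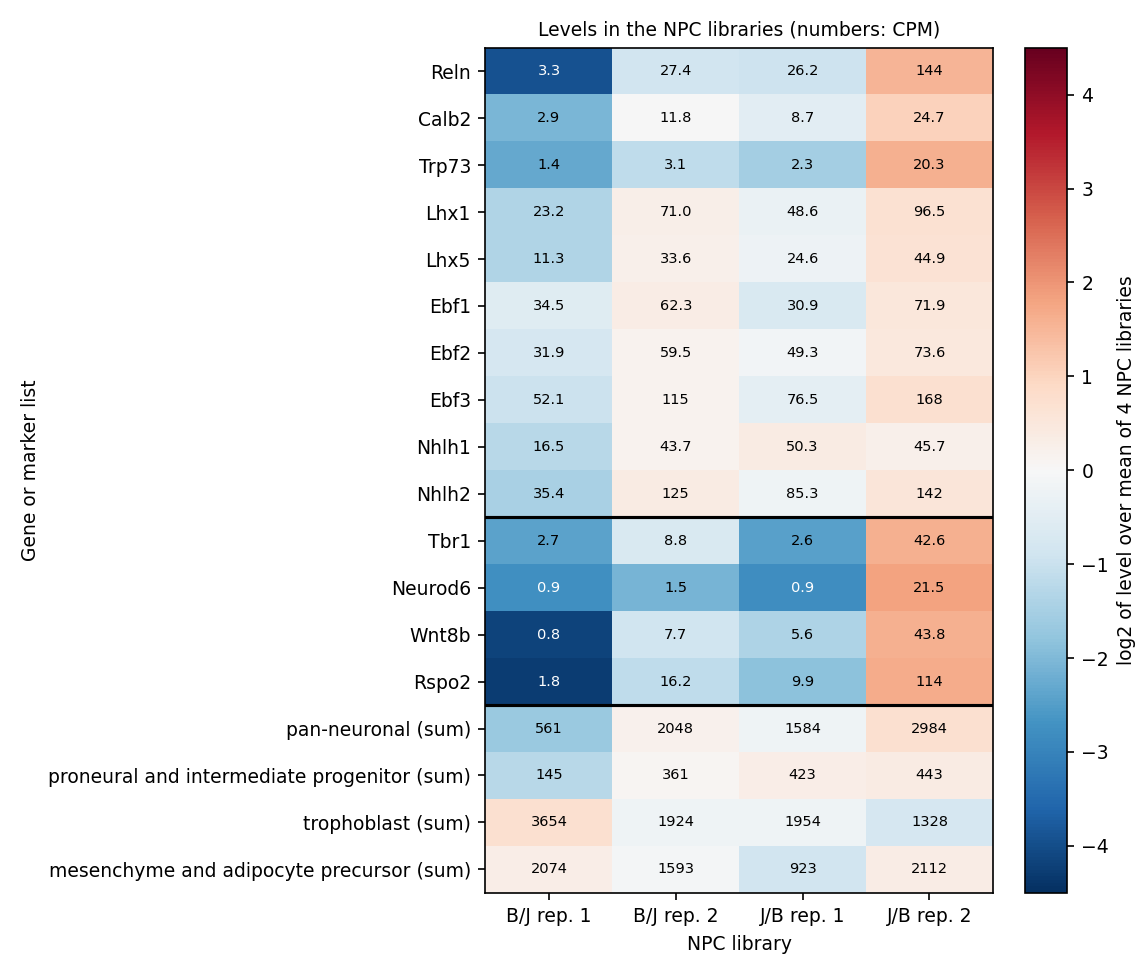
Levels in the 4 NPC libraries, with the CPM printed in each cell and the colour giving the log2 of the level over the mean of the 4 libraries. Rows are the 10 genes, 4 genes of cortical neurons and the cortical hem, and the summed levels of 4 marker lists; *Reln*, *Calb2* and *Trp73*, like the 4 added genes, were highest in J/B replicate 2.

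Neuronal genes as a whole were uneven among the NPC libraries too. The summed level of 14 pan-neuronal genes was 561, 2048, 1584 and 2984 CPM in the 4 NPC libraries and 552, 534, 393 and 546 CPM in the 4 ESC libraries, so that the sum of B/J replicate 1 of the NPCs stood near the ESC level. *Stmn2* gave the largest part of the ESC sum (189 ± 35.5 CPM, SD, n = 4) and averaged 96.0 ± 52.6 CPM over the NPC libraries. Per 1000 CPM of that sum, *Lhx1* stood at 41.5, 34.6, 30.7 and 32.3 CPM, *Lhx5* at 20.2, 16.4, 15.5 and 15.1 CPM and *Nhlh2* at 63.1, 61.2, 53.8 and 47.7 CPM. On this scale these 3 genes varied by at most 1.35 times between the highest and the lowest library, and B/J replicate 1 was no longer their lowest library but their highest. The other factors were less even: *Ebf1* stood at 61.5, 30.4, 19.5 and 24.1, *Ebf2* at 56.9, 29.0, 31.1 and 24.7, *Ebf3* at 92.9, 56.2, 48.3 and 56.2 and *Nhlh1* at 29.4, 21.3, 31.8 and 15.3 CPM. For *Ebf1* the highest library exceeded the lowest 3.16 times, more than in CPM (2.33 times).

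The evenness of *Lhx1*, *Lhx5* and *Nhlh2* depended on how the ESC level of the divisor was treated, in 2 ways added after seeing the data. Over the 7 pan-neuronal genes whose ESC mean was under 10% of their NPC mean, which summed to 14.0 to 22.9 CPM in ESCs and to 173, 644, 501 and 977 CPM in NPCs, the 3 genes varied by at most 1.42 times. With the ESC mean of the 14-gene sum taken off each NPC library, the divisor of B/J replicate 1 was only 54.4 CPM, that library was the highest for all 10 genes, and the 3 genes varied 11.0 to 11.5 times.

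Per 1000 CPM of all 14 pan-neuronal genes, *Reln* had the same lowest and highest libraries as in CPM, with 5.96, 13.4, 16.6 and 48.1 CPM. *Trp73* stood at 2.43, 1.51, 1.47 and 6.81, and *Calb2* at 5.15, 5.77, 5.46 and 8.28 CPM on that scale. J/B replicate 2 was the highest of the 4 for all 3 genes on this scale and over the 7 genes low in ESCs, but not with the ESC mean taken off, where B/J replicate 1 was the highest for all 3. The same library was the highest for 7 of the 10 genes of the hem and antihem and for 6 of the 8 genes of the subplate and deep layers, and J/B replicate 1 for the others, among them *Dbx1* (6.07, 29.8, 61.5 and 20.1 CPM). J/B replicate 2 was also the highest of the 4 for 12 of the 14 pan-neuronal genes, all 6 genes of the endoderm list, none of 10 trophoblast genes and 32.6% of all genes tested. The cortical neuron gene *Tbr1* stood at 2.66, 8.80, 2.63 and 42.6 CPM, *Wnt8b* at 0.811, 7.71, 5.60 and 43.8 CPM and *Rspo2* at 1.82, 16.2, 9.91 and 114 CPM. The part of that library's cell make-up in the *Reln* level was not tested.

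Among NPCs, levels per kilobase of annotated exon put *Nhlh2* first (17.9 ± 8.79 CPM per kb, SD, n = 4), followed by *Nhlh1* (15.8 ± 6.21), *Lhx1* (13.6 ± 7.13), *Lhx5* (10.6 ± 5.28), *Ebf3* (8.95 ± 4.39), *Ebf2* (7.15 ± 2.34), *Calb2* (6.33 ± 4.87), *Ebf1* (5.11 ± 2.08), *Reln* (2.11 ± 2.67) and *Trp73* (1.22 ± 1.64). Only *Lhx1* over *Lhx5*, *Ebf3* over *Ebf2* and *Ebf1* over *Reln* held in all 4 libraries. No pair of neighbours differed by more than the sum of their SDs. With the length of the canonical transcript, *Ebf3* moved to the second place at 20.4 CPM per kb, so that the upper places depend on the length taken.

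The genes nearest to *Reln* and *Lhx5* in pattern differed. Likeness was the root mean square difference of centred log2(CPM + 0.5) over the 8 libraries, compared with 14090 other genes and given with no test, since all points share the same libraries. For *Reln* the 5 nearest were *Fezf2* (0.42), a factor of deep-layer neurons, *Syt4* (0.49), *Wnt8b* (0.50), a signal of the hem, *Dscam* (0.54) and *Lin7a* (0.55). For *Lhx5* the 4 nearest were *Chgb* (0.10), *Neurog2* (0.15), a proneural factor, *Scg3* (0.18) and *C130021I20Rik* (0.20). *Calb2* was the nearest of the other 9 genes to *Reln*, at rank 116, and *Nhlh1* the nearest to *Lhx5*, at rank 44.

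Genes that work with the 10, or mark the same neurons, were read from lists and described by their counts beside the 37.5% of all genes called higher. All 7 other Cajal-Retzius markers rose, with a summed level of 6.83 to 9.23 CPM in ESCs and 424 to 965 CPM in NPCs. Much of that sum came from *Nr2f2* (233 CPM on average in NPCs) and *Zic1* (215 CPM), which other cell types also express. *Tbr1* rose by 6.70 ± 1.12 on the log2 scale (adjusted p = 0.00116). Of 10 genes of the hem and antihem, the borders from which Cajal-Retzius cells come, 9 rose (8 with limma-voom) and none fell. *Wnt8b* (6.81 ± 1.27, adjusted p = 0.00204) and *Rspo2* (7.22 ± 1.18, adjusted p = 0.00102) were among them. *Wnt3a*, of the same list, did not pass the test (0.71 ± 0.60, adjusted p = 0.315).

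Of 22 genes of reelin signalling, 14 rose and 3 fell. Scaled to library totals 18 rose and 1 fell, and scaled to *Gapdh*, *Gusb* and *Tbp* 19 rose and none fell, since these scalings move the median of all genes to 0.65 and 0.80. Both receptors of reelin rose, *Vldlr* by 4.07 ± 0.53 (adjusted p = 3.48e-04) and *Lrp8* by 1.06 ± 0.29 (adjusted p = 0.0124), the latter at 0.93 (adjusted p = 0.0501) without B/J replicate 1 of the ESCs. The adaptor *Dab1*, which relays the signal inside the cell, did not pass the test in the main fit (0.82 ± 0.39, adjusted p = 0.0909). It passed with library totals (1.29, adjusted p = 0.0227) and with *Gapdh*, *Gusb* and *Tbp* (1.45, adjusted p = 0.0221). With TMM it also passed under a replicate block (0.82, adjusted p = 0.0424) and a block within each stage (0.81, adjusted p = 0.0413). Without J/B replicate 2 of the ESCs its value was 1.38. *Adamts4* (4.66 ± 0.25, adjusted p = 1.34e-05) and *Adamts5* (7.84 ± 0.82, adjusted p = 2.04e-04), proteases that cleave reelin, rose, as did *Cdk5r1* (4.26 ± 0.53, adjusted p = 2.67e-04), the activator of the kinase Cdk5.

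The partners and relatives of the transcription factors were mixed. Among 17 LIM-homeodomain partners and relatives, 12 rose and 3 fell, and with the other 2 scalings 14 rose and at most 1 fell. *Ldb1*, the cofactor that LIM-homeodomain factors share, had 230 ± 26.4 CPM in the ESC and 222 ± 26.3 CPM in the NPC libraries (SD, n = 4). It fell by 0.53 ± 0.12 on the log2 scale with TMM (adjusted p = 0.00512), but was not called with library totals (-0.05, adjusted p = 0.730) and turned to 0.10 (adjusted p = 0.610) with *Gapdh*, *Gusb* and *Tbp*. Of 3 relatives and partners of the EBF factors, *Ebf4* (5.37 ± 0.47, adjusted p = 5.79e-05) and *Zfp521* (3.75 ± 0.34, adjusted p = 6.35e-05) rose and *Zfp423* did not pass the test (0.05 ± 0.31, adjusted p = 0.888). Among 7 bHLH partners and inhibitors, 3 rose and 2 fell, with *Tcf12* up by 2.34 ± 0.13 (adjusted p = 1.47e-05).

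In the family of *Trp73*, the relatives moved while *Trp73* itself did not pass the test. *Trp63* rose by 8.75 ± 0.61 on the log2 scale (adjusted p = 2.85e-05), from at most 0.0712 CPM in the ESC libraries to 35.6, 43.7, 10.1 and 36.7 CPM in the NPC libraries. *Trp53* fell by 2.60 ± 0.15 on that scale (adjusted p = 1.54e-05). Of the 10 genes of the p53 family and its targets, 1 rose and 7 fell, against 2 and 5 with library totals and 2 and 3 with the scaling to *Gapdh*, *Gusb* and *Tbp*. Of 3 relatives of *Calb2* tested, 2 rose, and *Calb1* reached only 0.986 ± 0.375 CPM in NPCs (SD, n = 4).

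**Figure D5:**
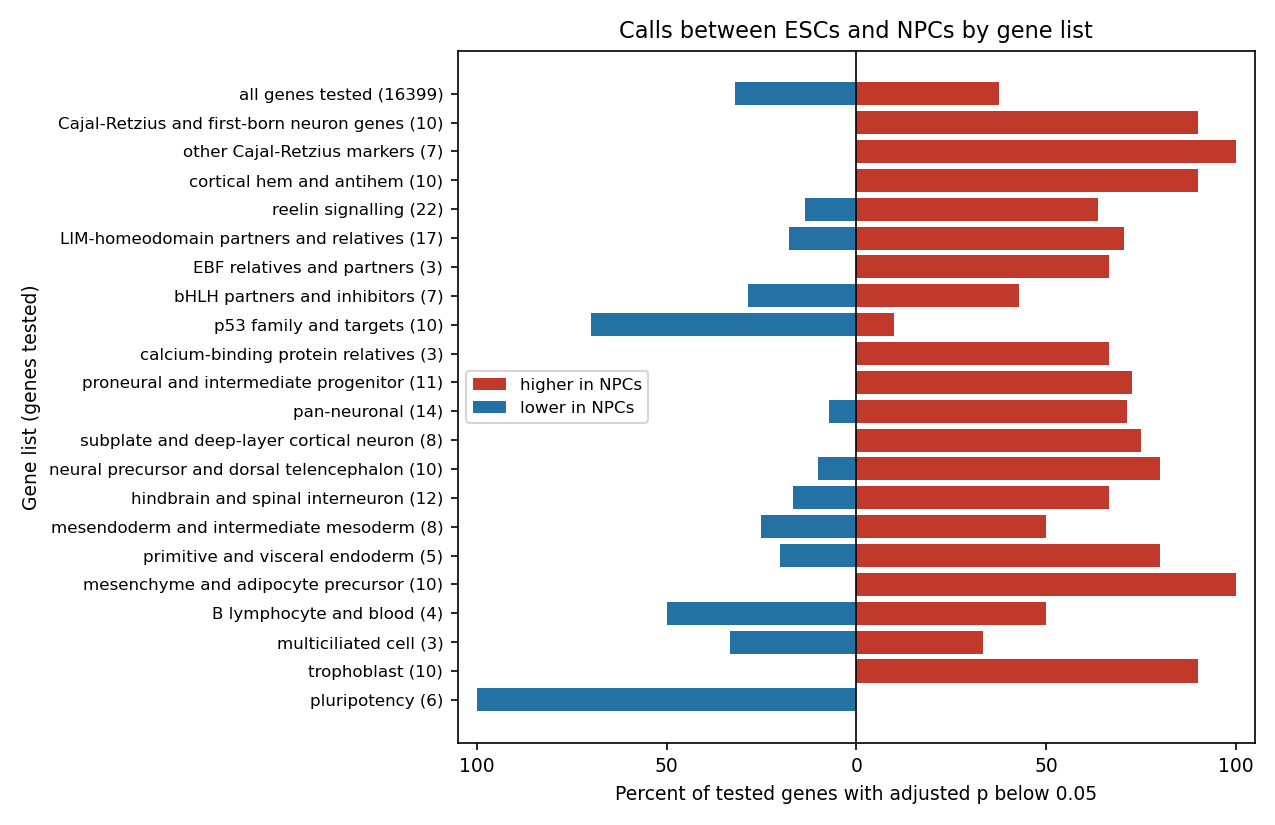
Percent of the tested genes of each list called higher (red, to the right) or lower (blue, to the left) in NPCs at an adjusted p below 0.05, with the number tested in parentheses and all 16399 genes in the top bar. The 10 genes and the other Cajal-Retzius markers have no gene called lower, which also holds for the lists of mesenchyme and trophoblast, among others.

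Other lineages that express some of the 10 genes were measured in the same libraries. Of 14 pan-neuronal genes 10 rose and 1 fell, of 11 proneural genes 8 rose and none fell, and of 8 genes of the subplate and deep layers 6 rose and none fell. Of 12 genes of hindbrain and spinal interneurons, in which *Lhx1*, *Lhx5* and *Ebf* genes are also used, 8 rose and 2 fell, with a summed level of 30.9 to 64.9 CPM in ESCs and 54.2 to 176 CPM in NPCs, so that the stages overlapped, among them *Lbx1* (7.43 ± 0.57, adjusted p = 3.61e-05).

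All 10 mesenchyme and adipocyte precursor genes rose, with sums of 2074, 1593, 923 and 2112 CPM in the 4 NPC libraries and at most 54.8 CPM in an ESC library, and *Ebf1* and *Ebf2* are used in that lineage. Of 10 trophoblast genes 9 rose and none fell, with sums of 3654, 1924, 1954 and 1328 CPM in NPCs and at most 171 CPM in an ESC library. The trophoblast sum was highest in B/J replicate 1, where *Reln*, *Calb2* and *Trp73* were lowest. The B lymphocyte and blood list, by contrast, summed to at most 3.99 CPM in an ESC and 16.4 CPM in an NPC library, 1 of its 7 genes was at 0 in all 4, and 2 of the 4 tested rose and 2 fell. Its only gene with a mean of at least 1 CPM in NPCs was *Pax5* (7.12 ± 6.14 CPM, SD, n = 4), which the midbrain-hindbrain border also uses. Of 8 mesendoderm genes 4 rose and 2 fell, of 5 endoderm genes 4 rose and 1 fell, and of 3 genes of multiciliated cells, which also use p73, 1 rose and 1 fell. Among NPC libraries, 3 of the 4 multiciliated genes listed were highest in J/B replicate 2, as *Trp73* was. *Ccno*, the gene that fell, stood at 0.649, 0.564, 0.367 and 4.88 CPM in the NPCs. *Foxj1*, the gene that rose, stood at 7.63, 5.27, 8.87 and 7.96 CPM. The part of each lineage in the levels of the 10 genes was not tested. All 6 pluripotency genes fell.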

How the data were processed

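Paired-end RNA-seq of 8 libraries was analysed. The authors mapped reads with TopHat2 to the mm39 genome masked at JF1 polymorphisms, discarded improper pairs and alignments of a mapping quality under 20, and deposited unnormalized counts per gene (26263 genes). HTSeq, DESeq2 and edgeR are named in the submitters' processing notes without versions or settings, and the sources used here do not state whether counting used the strand. Reads without a gene (5.76% to 10.9% of a library) and ambiguous reads (0.355% to 0.554%) stayed out of totals and tests.

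Counts of all genes were fitted with edgeR 4.0.16 in R 4.3.3 (TMM, filterByExpr with a minimum count of 10, 4 group means, robust quasi-likelihood tests), with Benjamini-Hochberg adjustment over the 16399 genes tested and a threshold of 0.05. The fit was tested on simulated data. CPM were taken on library totals without TMM, whereas fold changes used TMM. The SE of an edgeR fold change was worked back from the test, as the absolute log2 fold change over the square root of its F value. It can be smaller than an SE fitted directly, as for *Lhx5* with 0.74 against 0.99 in DESeq2. The common dispersion was 0.113. Ratios of summed counts have exact 95% intervals (Clopper-Pearson), and 3 counts served as the limit for a count of 0. Both cover counting error only. All 10 genes passed the filter, so that the permutation test planned for genes below it was not needed.

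Alternatives were scaling by library totals, by RLE or by *Gapdh*, *Gusb* and *Tbp*, DESeq2 1.42.0, limma-voom (limma 3.58.1), no filter, a replicate block, and each library left out. A block within each stage and the canonical length were added after seeing the data.

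The 10 genes and the lists were chosen with earlier results of these data known. From each list, the 3 called genes with the largest change and a mean of at least 1 CPM could be named, besides a fixed set of partners. *T* and *Mixl1* were named after their values were seen, and *Sox2*, *Pax6*, *Stmn2* and *Wnt3a* were also named outside this rule. Some genes that this rule would name are not reported here. Positions, lengths and promoters came from the GRCm39 genome with the GENCODE annotation.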

Additional observations from a re-analysis of the deposited data

Results flagged for a closer look

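In 1 of the 19 sets of 4 libraries examined, a single library stood far from the other 3. For *Trp73* in NPCs, the gap between J/B replicate 2 (20.3 CPM) and the next library (3.09 CPM) was 0.909 of the whole range. Chance alone marks about 1 in 20 such sets. *Reln* and *Calb2* were also highest in that library without passing this rule.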

How the results depend on the processing

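Over both crosses, 9 genes were called under each of the 16 alternatives, 6 to 9 in B/J, 7 to 9 in J/B and 0 in the comparisons between crosses. *Trp73* over both crosses turned to -0.40 with limma-voom, -0.24 with the replicate block and -0.28 with a block within each stage, and ranged from -1.12 to 0.45 with each library left out (in J/B from -1.32 to 1.83, in the interaction from -0.41 to 2.75), without passing the test (lowest adjusted p over both crosses 0.110). In B/J, *Reln* missed the threshold with limma-voom (2.45) and no filter (3.19), and *Calb2* with limma-voom (3.10). *Lhx1* in B/J passed with limma-voom (6.63), the replicate block (4.53) and the block within stages (5.87) and without either J/B ESC library (adjusted p = 0.0414 and 0.0425), and in J/B missed it without a filter (5.56). Its J/B values with 1 library left out fell to 4.65 (adjusted p = 0.0834) without ESC replicate 1 and 4.98 (adjusted p = 0.0866) without NPC replicate 2, and rose to 9.10 (adjusted p = 0.0297) without ESC replicate 2. The cause was not tested. Libraries with the same replicate number deviated together within a stage (r = 0.63 in ESCs and 0.47 in NPCs across genes) but scarcely between stages (0.04 to 0.09), so that the numbers do not pair ESCs with NPCs. The replicate block changed no other call of the 10 genes. With 1 library left in a group, it was taken to vary as the other groups do. At 3 to 24 summed ESC counts, the ratios of *Lhx5*, *Ebf2*, *Ebf3* and *Nhlh2* are known only within their wide intervals.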
